A study of Mus musculus with 3 samples.

Results

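The granzyme B to G cluster is a group of 7 neighboring genes on mouse chromosome 14, *Gzmb*, *Gzmc*, *Gzmd*, *Gzme*, *Gzmf*, *Gzmg* and *Gzmn*, and its members were picked by symbol from the 32285 genes of the count tables. Their levels were described in 5 classes of tumor-infiltrating lymphocytes (TILs) and between Kaede colors, together with the paralogs that single cells held at once. The host mice were WT C57BL/6 Kaede animals, in which every cell carries a photoconvertible fluorescent protein. They had received 250000 MC38-Ova tumor cells under the skin and isotype control treatment. Tumors were photoconverted on day 13 and taken on day 15. KG+ cells, unconverted and so in the tumor for no more than 48 h, gave 2 libraries, Kaede-green 1 and Kaede-green 2. KR+ cells, already present at photoconversion, gave 1 library, Kaede-red. The labels call the Kaede-green libraries biological replicates and do not say how many mice stood behind each library. Sorted cells were live, CD45+, TER119- and Kaede+, and CD11b+ NK1.1- myeloid cells had been gated out.

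Granzymes are serine proteases that cytotoxic lymphocytes store in granules and release, with the pore-forming protein perforin, onto target cells. Granzyme B, the best known of them, cleaves after aspartate and activates caspases in the target cell, whereas granzymes C to G and N arose by gene duplication in rodents and have less settled roles. NK cells and CD8 T cells are the main granzyme-bearing lymphocytes, and activated Tregs can carry granzyme B as well. *Gzmn* is best known from the testis.

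The 7 genes lay on the minus strand between positions 56117626 and 56262260 of chromosome 14 (GRCm38, GENCODE annotation), a span of 144.635 kb. They ran, from low to high coordinates, *Gzme*, *Gzmd*, *Gzmg*, *Gzmn*, *Gzmf*, *Gzmc* and *Gzmb*, and they were the only protein-coding genes among the 13 annotated there. *Gzmb* (ENSMUSG00000015437) occupied 56258838 to 56262260, *Gzmc* (ENSMUSG00000079186) 56231441 to 56234656, and *Gzmf* (ENSMUSG00000015441) 56205263 to 56211417. *Gzmd* (ENSMUSG00000059256) occupied 56129556 to 56132608 and *Gzme* (ENSMUSG00000022156) 56117626 to 56120625. *Gzmg* (ENSMUSG00000040284) lay at 56156582 to 56159579 and *Gzmn* (ENSMUSG00000015443) at 56165797 to 56174599. *Gm4022*, annotated on the opposite strand, overlapped *Gzmn* and *Gzmf*. The main transcripts of *Gzmd* and *Gzme* were 94.8% identical, those of *Gzmd* and *Gzmg* 90.5%, and *Gzmb* matched the other members at 72.0 to 77.8%. Over the last 400 bases of each transcript, which 3′ libraries read, none of the 310 windows of 91 bases was found in the transcript of another gene. Runs of up to 88 bases were nevertheless shared between members, so levels of *Gzmd*, *Gzme*, *Gzmf*, *Gzmg* and *Gzmn* are less certain than those of *Gzmb* and *Gzmc*.

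The sequence before the transcription start also set *Gzmb* apart, and with it *Gzmn*. *Gzmc*, *Gzmd*, *Gzme*, *Gzmf* and *Gzmg* shared a block of 83 bases, in which 70 positions were identical in all 5 genes and each pair matched at 74 to 80 positions. These blocks and the 100 bases before the *Gzmb* start, read from the RefSeq promoter table (GRCm38.p6) and given 5′ to 3′ on the minus strand, are shown because the 5 genes share the block and *Gzmb* lies apart from them. Capitals mark TGTGGT, the core letters of Runx motifs, the octamer at the place of TGACGTCA, the cyclic AMP response element, and in *Gzmb* also TGAGTCA, the AP-1 motif.
Gzmc, chr14:56234683-56234765: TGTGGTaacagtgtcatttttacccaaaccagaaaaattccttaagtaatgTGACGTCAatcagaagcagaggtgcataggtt
Gzmd, chr14:56132623-56132705: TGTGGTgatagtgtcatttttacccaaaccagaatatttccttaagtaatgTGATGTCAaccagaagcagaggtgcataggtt
Gzme, chr14:56120656-56120738: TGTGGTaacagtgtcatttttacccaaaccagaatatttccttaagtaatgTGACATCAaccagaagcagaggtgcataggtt
Gzmf, chr14:56211458-56211540: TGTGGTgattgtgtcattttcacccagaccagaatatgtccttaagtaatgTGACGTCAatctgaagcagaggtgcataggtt
Gzmg, chr14:56159625-56159707: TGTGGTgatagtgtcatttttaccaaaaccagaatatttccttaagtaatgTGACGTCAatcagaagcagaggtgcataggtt
Gzmb, chr14:56262335-56262434: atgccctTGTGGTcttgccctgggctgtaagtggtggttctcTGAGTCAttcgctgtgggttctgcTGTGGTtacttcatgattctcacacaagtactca
The full octamer TGACGTCA stood in *Gzmc*, *Gzmf* and *Gzmg* and in 1.55% of the 32851 promoter windows of the table. Each window runs from 250 bases before to 50 after a start, and only the 250 bases before it were searched. For *Gzmb* the RefSeq start lies upstream of the GENCODE start. Its printed bases stop at 56262335 and the GENCODE start is 56262260, so the bases between were not searched. *Gzmd* and *Gzme* held TGATGTCA and TGACATCA at the same place. TGTGGT, searched on both strands, was in the windows of 6 members and in 14% of all windows, and TGAGTCA was in *Gzmb* alone of the 7 and in 4.46% of all. AGGTGTGA, a T-box motif, was in no member and in 1.12% of all windows, and TATAAA was in *Gzmn* alone and in 12.4%. A pair of shared runs inside the block, TCCTTAAGTAATGTGA, whose last 3 bases overlap the octamer, and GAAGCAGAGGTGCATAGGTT, which ends the block, occurred in 5 windows each, those of the same 5 genes. *Gzmb* and *Gzmn* held neither run.

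The tables held 34781 cell barcodes and 87193225 to 175848894 UMIs (unique molecular identifiers, each counting 1 captured RNA molecule) per library, and 31943 cells passed the filters. The members took 0.402% and 0.452% of the UMIs of kept cells in the Kaede-green libraries and 1.49% in Kaede-red. Libraries shared 20 to 36 barcodes. NK cells (at least 1 UMI of *Ncr1*, at most 1 of *Cd3e*) other than ILC-like cells numbered 2511, 2512 and 2921; here and below, 3 values follow the order Kaede-green 1, Kaede-green 2, Kaede-red unless said otherwise. ILC-like cells (NK cells with at least 2 UMIs of *Rora* and 0 of *Eomes*) numbered 94, 161 and 252, and CD8 T cells 2299, 3217 and 4044. Tregs (375, 698 and 693 cells) and γδ T cells (232, 132 and 271 cells) completed the set, and 652 cells that met several rules were left out. The γδ rule asked for *Cd163l1*, so γδ T cells without a UMI of it are not described. Of markers the rules did not use, the NK list summed to 4462 to 5344 CPM (UMIs of a gene scaled to a common total of UMIs per class and library, as counts per 1e+06) in NK cells and to 1189 to 1695 CPM in CD8 T cells. The Treg list was highest in Tregs (5026 to 5768 CPM), the γδ list in γδ T cells (2975 to 4815 CPM), and the mast cell list, for cells that use a neighboring protease locus, reached 18.5 CPM at most in any class. The ILC list was higher in ILC-like than in NK cells (557 to 696 against 75.8 to 122 CPM), but higher still in γδ T cells (2081 to 2765 CPM). CD8 T cells, at 529 to 641 CPM, matched ILC-like cells, and Kaede-red Tregs reached 635 CPM. The list thus did not separate ILC-like cells from T cells. Depth moved with color: the median NK cell held 6083 and 8083 UMIs in the Kaede-green libraries and 17512 in Kaede-red, and the median CD8 T cell 8901, 10489 and 14183.5.

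The make-up of granzyme transcripts varied with class and library, and not every class stood apart. NK cells held mainly *Gzmb* and *Gzmc*, and ILC-like cells mainly *Gzmc*. CD8 T cells held *Gzmb*, *Gzmf* and *Gzmc*, and Tregs almost only *Gzmb* among KG+ cells. In NK cells *Gzmb* made up 61.2%, 46.9% and 17.0% of the members' UMIs in the KG+ libraries 1 and 2 and in the KR+ library, and *Gzmc* 36.1%, 47.6% and 67.3%. *Gzmf* made up 19.5%, 19.2% and 38.1% of the members' UMIs in CD8 T cells but at most 5.38% in NK cells and 6.47% in ILC-like cells. The share of *Gzmc* in CD8 T cells was 14.5%, 16.1% and 19.5%, near that of *Gzmf* in the Kaede-green libraries. In Tregs the share of *Gzmb* was 95.9%, 90.4% and 64.5%. In γδ T cells *Gzmb* made up 59.3%, 75.3% and 33.1% and *Gzmc* 39.9%, 15.3% and 60.6%. Their shares in Kaede-green 1 were thus near those of NK cells, although 1 cell held 89.2% of that *Gzmc*. In every class the *Gzmb* share was lowest in Kaede-red.

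**Figure D1:**
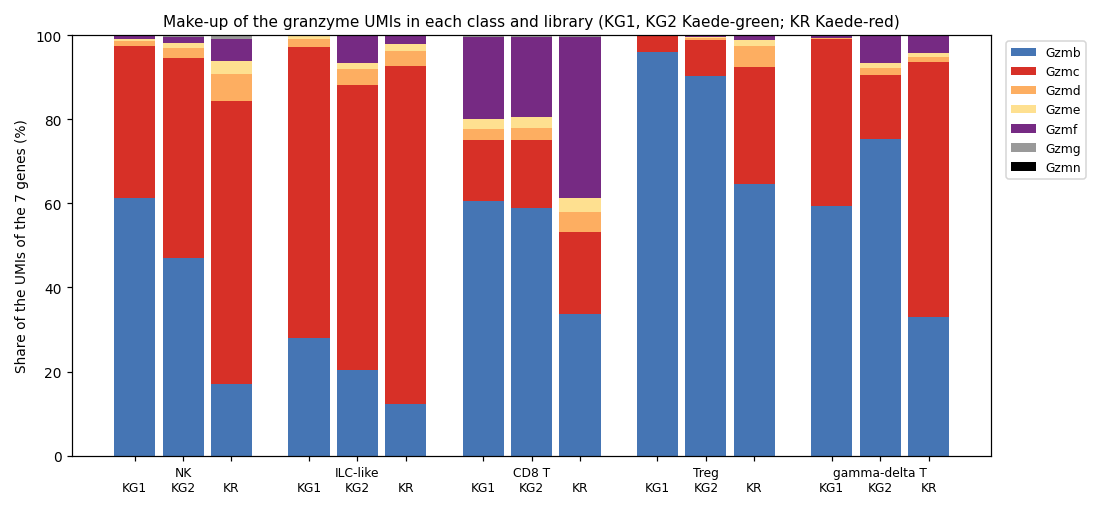
Share of the UMIs of the 7 genes (y axis, percent) taken by each gene in the summed cells of each class and library (x axis; KG1 and KG2 are the Kaede-green libraries, KR is Kaede-red). The *Gzmb* part is lowest in Kaede-red in each class, *Gzmc* reaches 67.3% in Kaede-red NK cells, and *Gzmf* reaches 38.1% in Kaede-red CD8 T cells.

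*Gzmb* was the member with the most even level. NK cells held 5103, 4348 and 4207 CPM of it in Kaede-green 1, Kaede-green 2 and Kaede-red, a mean of 4553 ± 482 CPM (SD, n = 3). Tregs came next with 2699, 2711 and 4045 CPM, above CD8 T cells with 1913, 2007 and 3562 CPM. ILC-like cells held 2071, 2675 and 2343 CPM and γδ T cells 455, 739.8 and 1326 CPM. NK cells were thus highest, Tregs second and γδ T cells lowest in every library, while CD8 T and ILC-like cells changed places. Over the libraries the range of CD8 T cells overlapped those of Tregs and ILC-like cells, which did not overlap each other.

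*Gzmc*, whose product kills target cells by a caspase-independent route, was the most abundant member in ILC-like cells of every library. Its level there was 5101, 8901 and 15412 CPM in Kaede-green 1, Kaede-green 2 and Kaede-red. NK cells held 3016, 4414 and 16623 CPM, a range that spans that of ILC-like cells. CD8 T cells held 457, 548 and 2054 CPM, below both in each library. Tregs held 110.2, 254 and 1754 CPM and γδ T cells 306, 150.2 and 2429.5 CPM. Single cells weighed heavily here, since 1 cell held 70.7% of the *Gzmc* UMIs of Tregs and 1 cell 89.2% of those of γδ T cells in Kaede-green 1.

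*Gzmf* had a different order from *Gzmc*. CD8 T cells held 617, 653 and 4021 CPM of it, against 78.2, 123 and 1328 CPM in NK cells, so CD8 T cells were higher in each library. The ratio of *Gzmf* to *Gzmc* UMIs was 1.35, 1.19 and 1.96 in CD8 T cells and 0.0259, 0.0279 and 0.0799 in NK cells. ILC-like cells ranged from 3.23 CPM in Kaede-green 1 to 849 CPM in Kaede-green 2, and 33.3 to 54.1% of these UMIs came from 1 cell per library. Tregs had the lowest *Gzmf* level of the 5 classes in Kaede-green 2 and Kaede-red.

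*Gzmd* and *Gzme*, the most alike in sequence, also had the most alike levels. *Gzmd* reached 99.4, 225 and 1581 CPM in NK cells and 82.0, 94.9 and 494 CPM in CD8 T cells. *Gzme* reached 44.7, 113 and 736 CPM in NK cells and 73.6, 86.0 and 366 CPM in CD8 T cells. The ratio of *Gzmd* to *Gzme* UMIs was 1.99 to 2.22 in NK cells and 1.10 to 1.35 in CD8 T cells, without overlap. Over the 15 sums of class and library, log2(CPM + 1) of the pair had a Pearson r of 0.98, whereas *Gzmb* and *Gzmf* had the lowest r of any pair, 0.34. Both are descriptions, since sums of a library share its depth and sort.

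*Gzmg* and *Gzmn* were the least abundant members. *Gzmg* was at 3.47, 43.6 and 209.9 CPM in NK cells and 12.0, 12.4 and 51.0 CPM in CD8 T cells, and 1 cell held 56.1% and 39.6% of the NK cell UMIs in the Kaede-green libraries. *Gzmn* had 0 UMIs in NK cells of both Kaede-green libraries and 41 in Kaede-red, and 2, 1 and 37 UMIs in CD8 T cells. No other class held more than 2 UMIs of *Gzmn* in a library.

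**Figure D2:**
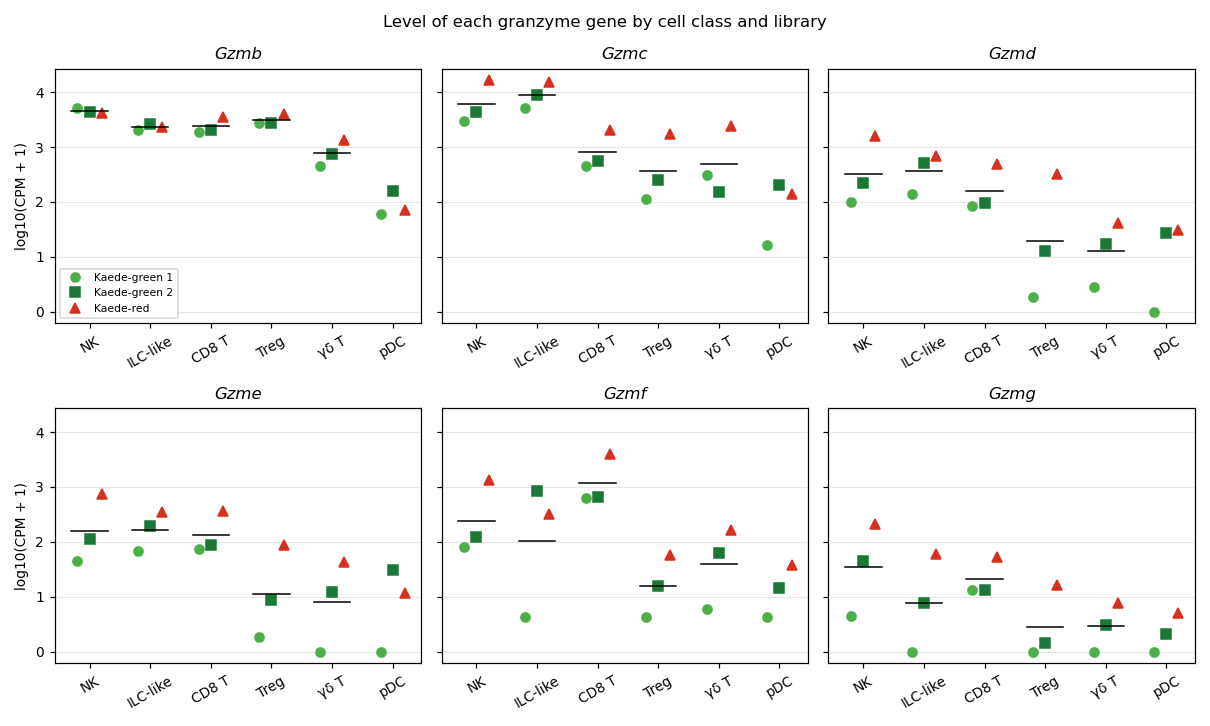
Level of the 6 more abundant members, as log10(CPM + 1) of summed UMIs (y axis), in each class (x axis) and library (symbols), with black lines at the mean of the 3 libraries for the 5 classes of TILs. Kaede-red NK cells are at 16623 CPM of *Gzmc* and Kaede-red CD8 T cells at 4021 CPM of *Gzmf*. Plasmacytoid dendritic cells (pDC), which were assumed to lack these genes, stay at or below 199.6 CPM.

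Plasmacytoid dendritic cells (at least 3 UMIs of *Siglech*, none of *Cd3e* or *Ncr1*) were assumed to lack the members. They were used because Kaede-red held only 2 B cells and 3 macrophages. Whether they express *Gzmb* or another member themselves was not tested. They were chosen after the data had been seen. The NK list summed in them to 5154, 5103 and 4588 CPM, as high as in NK cells, of which *Tyrobp*, a gene that dendritic cells also use, made up 4789.5, 4735 and 4269 CPM. *Klrb1c*, *Klra8* and *Klra4*, the NK receptors of the list that mark NK cells more closely, reached at most 8.73 CPM in pDC, against at least 177.6 CPM in NK cells. The rest of the list's sum in pDC came mainly from *Klrd1* and *Klre1*, so the NK receptors of the list were not all near absent there. The *Gzmc* level of pDC was 15.1, 199.6 and 141 CPM in Kaede-green 1, Kaede-green 2 and Kaede-red, with 65.0% of the second from 1 cell. Their *Gzmf* level was 3.35, 13.6 and 37.6 CPM. The *Gzmf* level of Tregs, 3.19, 14.9 and 56.1 CPM, was of the same order, and its source was not tested.

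The classes were compared by edgeR's quasi-likelihood test on the summed UMIs, with the library as a block and adjustment by Benjamini-Hochberg over 11639 genes. *Gzmn* was too low to be tested. CD8 T cells differed from NK cells in 3 of the 6 members tested: *Gzmc* and *Gzmb* were lower and *Gzmf* was higher. The log2 fold change was -2.94 for *Gzmc* (SE 0.42, adjusted p = 0.000104), -0.99 for *Gzmb* (SE 0.23, adjusted p = 0.00436) and 2.29 for *Gzmf* (SE 0.77, adjusted p = 0.0402). Among all genes 26.5% were called, 14.2% higher and 12.3% lower. *Gzmd*, *Gzme* and *Gzmg* had log2 fold changes of -1.03, -0.23 and -0.98 and did not pass. *Gzmd* passed when only the 2 classes entered the fit (adjusted p = 0.0344), and *Gzmg* passed without Kaede-green 1 (-1.99, adjusted p = 0.00264) and without each member's highest cell (-1.74, adjusted p = 0.000129). The call of *Gzmf* was lost with DESeq2 (adjusted p = 0.0880) and without Kaede-green 1 (adjusted p = 0.215), and that of *Gzmb* without either Kaede-green library (adjusted p = 0.0575 and 0.0852).

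ILC-like cells were lower than NK cells in *Gzmb*, the 1 member of 6 that passed the test, with a log2 fold change of -1.02 (SE 0.23, adjusted p = 0.0216) against a background of 2.94% of genes called, 1.74% higher and 1.20% lower. Without Kaede-green 1 or Kaede-green 2 that call was lost (adjusted p = 0.212 and 0.158). The largest difference was that of *Gzmg*, with -1.85 (SE 0.67, adjusted p = 0.218). It stood at 0, 6.76 and 59.5 CPM in ILC-like cells, below NK cells in Kaede-green 2 and Kaede-red. In Kaede-green 1 the count of 0 allows up to 3.23 CPM, and NK cells held 3.47 CPM, 56.1% of it from 1 cell. The order there is not resolved. *Gzmg* passed with only the 2 classes in the fit (-2.13, adjusted p = 2.97e-07), without Kaede-green 1 (-2.16, adjusted p = 0.0351), without each member's highest cell (-4.52, adjusted p = 2.01e-05) and without the low-count filter (-1.88). *Gzmc* stood at 0.61 (SE 0.40, adjusted p = 0.601), a difference not told from 0 at this spread. *Gzmd* (0.29), *Gzme* (0.055) and *Gzmf* (0.15) changed direction when the single highest cell of each member was left out, and their values in ILC-like cells rest on few cells.

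Tregs were lower than NK cells in all 6 members tested, against 41.8% of all genes called, 22.1% higher and 19.7% lower. The difference was smallest for *Gzmb*, at -0.75 (SE 0.22, adjusted p = 0.0150), and was -4.11 for *Gzmc*, -3.32 for *Gzmd*, -3.59 for *Gzme*, -4.38 for *Gzmf* and -4.26 for *Gzmg*. In the Kaede-green libraries *Gzmd*, *Gzme* and *Gzmg* of Tregs, at most 12.0, 7.54 and 0.425 CPM, were of the order of those in pDC. In Kaede-green 2, though, 1 pDC held 83.3% of the *Gzmd* UMIs of its class, and 87.3% was the top share for *Gzme*. In Kaede-red the Treg levels were above pDC, at 316, 84.8 and 15.1 against 29.7, 10.9 and 3.96 CPM. The sizes of the *Gzmd*, *Gzme* and *Gzmg* differences, here and against CD8 T cells, are therefore not resolved. *Gzmc* of Tregs stood at 110.2 CPM in Kaede-green 1, 70.7% of it from 1 cell, and at 254 CPM in Kaede-green 2. In pDC it stood at 15.1 and 199.6 CPM there. In Kaede-red it was above pDC, at 1754 against 141 CPM. The sizes of the *Gzmc* differences of Tregs are thus not resolved either. The *Gzmb* call was lost without either Kaede-green library (adjusted p = 0.0958 and 0.114) and with limma (adjusted p = 0.118). Without Kaede-red *Gzmd* stood at -4.61, *Gzmf* at -3.69 and *Gzmg* at -6.46, and without Kaede-green 2 *Gzmg* stood at -3.66. Against CD8 T cells, 5 of 6 members were lower in Tregs, with 26.7% of all genes called, 14.2% higher and 12.5% lower. *Gzmf* passed with a fitted log2 fold change of -6.66 (SE 0.98, adjusted p = 0.000141), but its level in Tregs was of the order of that in pDC, so the size of this difference, and of that to NK cells, is not resolved. *Gzme* had -3.36, *Gzmg* -3.29 and *Gzmd* -2.30, while *Gzmb* stood at 0.24 (SE 0.22, adjusted p = 0.483). The call of *Gzmc*, -1.17 (adjusted p = 0.0469), was lost without either Kaede-green library (adjusted p = 0.393 and 0.104) and with DESeq2, DESeq2 size factors, stricter class rules or no upper limit on genes (adjusted p = 0.0524 to 0.0813). That of *Gzmd* was lost without either Kaede-green library (adjusted p = 0.191 and 0.110) and without the limit on genes (adjusted p = 0.0504). Leaving out a library moved *Gzmd* from -1.49 without Kaede-green 1 to -3.88 without Kaede-red, *Gzme* from -2.73 to -4.29 and *Gzmg* from -2.56 to -5.94 in the same order, and *Gzmf* to -5.98 without Kaede-green 1.

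γδ T cells were lower than NK cells in all 6 members as well, with 33.8% of all genes called, 18.0% higher and 15.8% lower. The log2 fold change was -2.67 for *Gzmb*, -3.57 for *Gzmc*, -5.07 for *Gzmd*, -4.04 for *Gzme*, -2.68 for *Gzmf* and -4.89 for *Gzmg*. In γδ T cells *Gzmd*, *Gzme* and *Gzmg* reached at most 40.4, 42.8 and 6.81 CPM in any library. In pDC they reached at most 29.7, 29.99 and 3.96 CPM. Of the *Gzme* UMIs behind the 29.99 CPM, in Kaede-green 2, 1 cell held 87.3%. In Kaede-red *Gzme* was at 10.9 CPM in pDC and 42.8 CPM in γδ T cells, 50% of the latter from 1 cell. The γδ T cell levels of *Gzmd* and *Gzmg* were thus of the order of those in pDC. The highest *Gzme* level of each class rested in large part on 1 cell. The sizes of the *Gzmd*, *Gzme* and *Gzmg* differences are not resolved. *Gzmc* of γδ T cells stood at 306 CPM in Kaede-green 1, 89.2% of it from 1 cell, and at 150.2 CPM in Kaede-green 2. In pDC it stood at 15.1 and 199.6 CPM there. In Kaede-red it was above pDC, at 2429.5 against 141 CPM, so the size of its difference is not resolved either. The call of *Gzmf* (adjusted p = 0.0321) was lost without Kaede-green 1 (adjusted p = 0.0871), without Kaede-red (-1.99, adjusted p = 0.173) and with limma (adjusted p = 0.149), and its value was -3.31 without Kaede-green 2. That of *Gzmg* was lost without Kaede-red (adjusted p = 0.0989) and, at -2.05, without the upper limit on genes (adjusted p = 0.0612), and *Gzmd* stood at -4.39 without Kaede-red. The median over the 6 members was -0.98 for CD8 T, 0.10 for ILC-like, -3.85 for Treg and -3.80 for γδ T cells against NK cells. Over all genes tested, the medians of these comparisons lay between -0.025 and 0.0051.

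The next question was how the cluster differs between recent arrivals and cells that had been in the tumor for longer. Kaede-red is a single library, so in each test it was assumed to vary like the Kaede-green libraries, and the fit had 1 residual degree of freedom. In NK cells *Gzmc*, *Gzmd*, *Gzme* and *Gzmf* were higher in KR+ than in KG+ cells, while *Gzmb* and *Gzmg* did not pass the test. Of all 12923 genes, 15.6% were called, 8.42% higher and 7.19% lower. *Gzmc* had a log2 fold change of 2.33 (SE 0.20, adjusted p = 0.0159), *Gzmf* 3.89 (SE 0.25, adjusted p = 0.0144), *Gzmd* 3.45 (SE 0.41, adjusted p = 0.0189) and *Gzme* 3.39 (SE 0.46, adjusted p = 0.0189). *Gzmg* had 3.30 with an SE of 1.00 and did not pass (adjusted p = 0.0747), and its Kaede-green libraries differed from each other by 3.64. *Gzmg* did pass under several alternatives, among them stricter class rules (2.75, adjusted p = 0.0142), removal of the top Scrublet scores (3.21, adjusted p = 0.0387), limma (4.26, adjusted p = 0.0190), all 5 classes in one fit (3.27, adjusted p = 0.00758) and the fit without each member's highest cell (4.92, adjusted p = 0.0192). The fit over all 5 classes had no library term, so it treated the sums of a library as independent, which they are not. Against Kaede-green 2 or Kaede-green 1 alone, with no test, the values were 2.99 and 4.17 for *Gzmd*, 2.87 and 4.22 for *Gzme*, 3.60 and 4.26 for *Gzmf*, and 2.44 and 6.07 for *Gzmg*. *Gzmb* had -0.0013 (SE 0.13). *Gzmn*, at 0 UMIs in KG+ cells and 41 in KR+ cells, passed the low-count filter only through Kaede-red, so its call is not counted.

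In CD8 T cells the members other than *Gzmn* were all higher in KR+ cells, against 8.27% of 13790 genes called, 3.71% higher and 4.56% lower. The log2 fold change was 0.87 for *Gzmb* (SE 0.12, adjusted p = 0.00315), 2.04 for *Gzmc*, 2.50 for *Gzmd*, 2.21 for *Gzme*, 2.68 for *Gzmf* and 2.07 for *Gzmg*. *Gzmn*, at 2, 1 and 37 UMIs, passed the low-count filter only through Kaede-red, so its value of 3.58 is not counted as a call. Between the KG+ libraries the log2 ratio was at most 0.26 in the members other than *Gzmn*, and both ratios to Kaede-red exceeded that difference for every member. When all 5 classes entered one fit, *Gzmd* (2.51), *Gzmf* (2.69) and *Gzmg* (2.09) kept their direction but no longer passed.

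**Figure D3:**
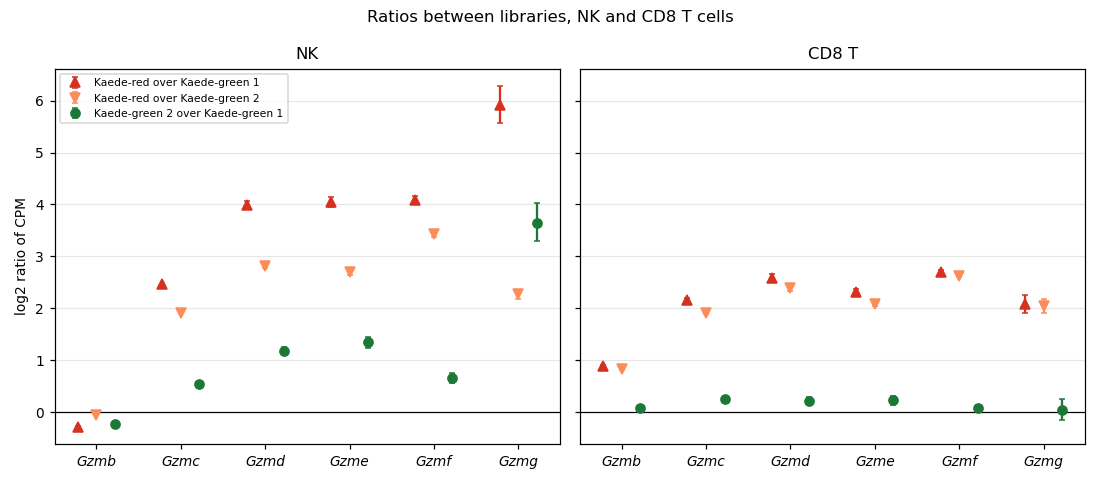
Log2 ratio of CPM (y axis) between libraries for 6 members (x axis) in NK cells and CD8 T cells, with exact Poisson 95% intervals that cover counting error only. Triangles are Kaede-red over each Kaede-green library and circles the Kaede-green libraries against each other, which differ by 3.64 for *Gzmg* in NK cells and by at most 0.26 in CD8 T cells.

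The color difference itself was unequal in NK and CD8 T cells for *Gzmb* and *Gzmf*. The difference of the log2 fold changes, NK minus CD8 T, was -0.89 for *Gzmb* (SE 0.15, adjusted p = 0.0187) and 1.23 for *Gzmf* (SE 0.22, adjusted p = 0.0209), with 6.83% of 14077 genes called, 3.54% higher and 3.29% lower. For *Gzmc* it was 0.29 (SE 0.16, adjusted p = 0.338), and *Gzmd* (1.04), *Gzme* (1.27), *Gzmg* (1.47) and *Gzmn* (4.43) did not pass either. Without each member's highest cell *Gzmd*, *Gzme* and *Gzmg* passed (adjusted p = 0.00480, 0.00307 and 0.000216). With DESeq2 the call of *Gzmf* was lost (adjusted p = 0.206).

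In the other classes no test between colors was made. In ILC-like cells no member's ratio of Kaede-red to both Kaede-green libraries exceeded the difference between those libraries. In Tregs *Gzmb*, *Gzmc*, *Gzmd*, *Gzme* and *Gzmg* exceeded it, and in γδ T cells *Gzmb* and *Gzmc* did. Single cells weighed on these values: in Kaede-red, 1 Treg held 48.3% of the *Gzmd* UMIs of its class, 38.0% was the top share for *Gzme* and 66.0% for *Gzmg* (106 UMIs in all), and 1 γδ T cell held 26.9% of *Gzmb* and 22.6% of *Gzmc*. The *Gzmc* level of pDC also differed between libraries, at 15.1, 199.6 and 141 CPM, and depth moved with color in several ways. The median ILC-like cell held 7901.5, 10068 and 14660 UMIs, deeper in Kaede-red as in NK and CD8 T cells, whereas the median Treg held 9474, 10158.5 and 7039 and the median γδ T cell 6010, 6396 and 5920. The part of free RNA or depth in the color differences was not tested.

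Shares of cells were compared after thinning each cell to 2000 UMIs. At least 1 UMI of *Gzmb* was found in 87.5%, 87.4% and 86.8% of NK cells in Kaede-green 1, Kaede-green 2 and Kaede-red. For *Gzmc* the shares were 20.5%, 36.0% and 82.8%, the last with an exact 95% interval of 81.4 to 84.1%, and for *Gzmd* 1.04%, 3.98% and 22.8%. Before thinning, 32.6%, 63.0% and 95.4% of NK cells held *Gzmc*. In CD8 T cells *Gzmf* was found in 5.62%, 11.5% and 36.1% of cells (interval of the last 34.6 to 37.6%) and *Gzmc* in 8.97%, 20.8% and 47.8%. Of 70 Kaede-red pDC (median 14369 UMIs), 18.6% had *Gzmc*, 10.0% *Gzmb* and 5.71% *Gzmf*. At 3 or more UMIs, a threshold added after the data had been seen, *Gzmb* was found in 1.43% of Kaede-red pDC and no other member was, which allows a share of up to 4.29%. Kaede-green 2 pDC held *Gzmb* in 2.04%, *Gzmc* in 1.36% and *Gzmd* and *Gzme* in 0.680% of cells, and Kaede-green 1 pDC held none of the 7, which allows up to 2.91%. At that threshold *Gzmc* was found in 10.1%, 16.8% and 67.4% of NK cells and *Gzmf* in 4.05%, 5.50% and 24% of CD8 T cells.

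Within NK cells most cells with *Gzmd*, *Gzme* or *Gzmg* also held *Gzmc*. At 3 or more UMIs, *Gzmc* was in 67.4% of all Kaede-red NK cells. *Gzmd* and *Gzmf* overlapped less, as given below, so the members as a whole were not nested. Levels of *Gzmd*, *Gzme* and *Gzmg* are also less certain, because their transcripts share runs of bases. Of Kaede-red NK cells with 3 or more UMIs of *Gzmd*, 99.8% also had 3 or more of *Gzmc* (402 of 403 cells), while 20.4% of those with *Gzmc* had *Gzmd*. All 269 cells with *Gzme* had *Gzmc*, and 86.2% of them had *Gzmd*. All 69 cells with *Gzmg* had *Gzmd*. In the Kaede-green libraries the overlap rested on few cells: 14 of 14 and 32 of 32 NK cells with *Gzmd* also had *Gzmc*. At 1 UMI or more, *Gzmd* cells with *Gzmc* made up 88.5%, 66.0% and 96.1%.

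In CD8 T cells *Gzmd* went with both *Gzmf* and *Gzmc*. At 3 or more UMIs, 87.5%, 83.3% and 80.7% of CD8 T cells with *Gzmd* had *Gzmf*, and 68.8%, 63.9% and 73.1% had *Gzmc*. At 1 UMI or more the shares were 72.3%, 59.1% and 67.9% for *Gzmf* and 72.3%, 48.7% and 73.6% for *Gzmc*, so which was more frequent depended on the threshold and the library. Of all Kaede-red CD8 T cells, 24% had *Gzmf* and 19.3% had *Gzmc* at 3 or more UMIs. In Kaede-red NK cells with *Gzmd*, 24.3% had *Gzmf*. Conversely, 22% of CD8 T cells and 62.4% of NK cells with *Gzmf* had *Gzmd* in Kaede-red. Cells with both *Gzmb* and *Gzmc* were 1.02 to 1.03 times as many in NK cells as the product of their shares at 1 UMI, against 3.52 to 59.8 times for *Gzmd* and *Gzme*. *Gzmb* was in 86.8 to 87.5% of NK cells, which leaves its ratio little room above 1. The ratios therefore cannot tell whether *Gzmb* pairs less with its paralogs. Such ratios fall as shares rise, and Kaede-red had the highest shares. Cells of a library are not replicates, and no test was made.

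**Figure D4:**
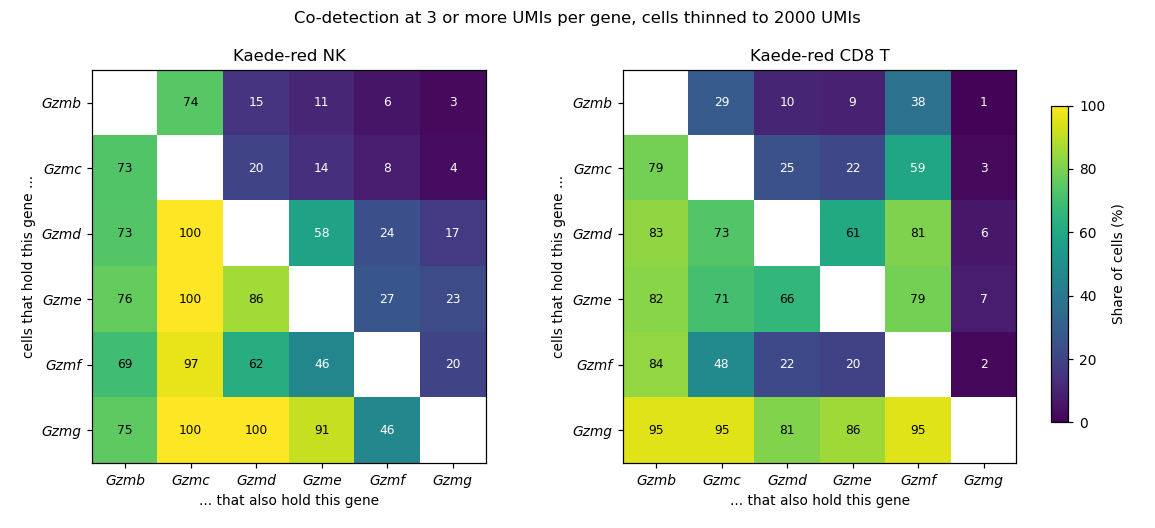
Share of thinned Kaede-red cells (color and number, percent) that hold 3 or more UMIs of the column gene among those that hold 3 or more of the row gene, in NK cells and CD8 T cells. *Gzmc* is in 97 to 100% of NK cells with *Gzmd*, *Gzme*, *Gzmf* or *Gzmg*, while in CD8 T cells with *Gzmd* the share is 81% for *Gzmf* and 73% for *Gzmc*.

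Cells with several members at once were found mainly among KR+ cells. Of the 5 genes *Gzmc* to *Gzmg*, 3 or more were detected in 0.558%, 1.67% and 16.9% of NK cells in the KG+ libraries 1 and 2 and in the KR+ library, and in 1.83%, 2.36% and 14.2% of CD8 T cells. ILC-like cells had 2.13%, 6.83% and 11.5%, on 2, 11 and 29 cells. Tregs and γδ T cells reached at most 1.88% and 2.21%. None of the 5 was detected in 78.2%, 58.8% and 14% of NK cells. At 3 or more UMIs each, 9.28% of Kaede-red NK cells and 5.84% of Kaede-red CD8 T cells held 3 or more of the 5.

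**Figure D5:**
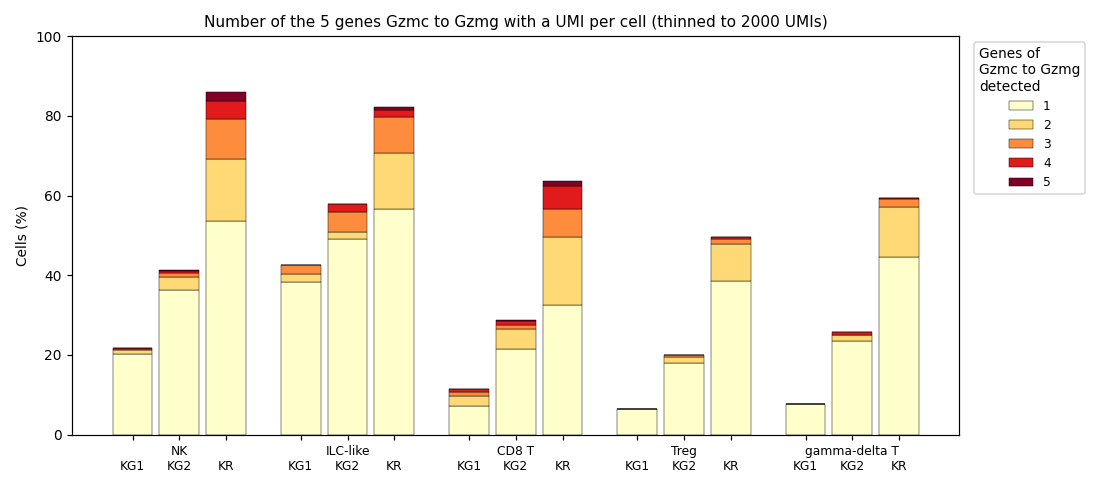
Share of cells (y axis, percent) with 1 to 5 of the genes *Gzmc* to *Gzmg* detected at 1 UMI or more after thinning to 2000 UMIs, by class and library (x axis; KG1, KG2 and KR as Kaede-green 1, Kaede-green 2 and Kaede-red). In NK cells 3 or more genes were detected in 0.558%, 1.67% and 16.9% of cells.

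Counts of other cytotoxic granule genes were set beside the shares of all genes called. Of 16 granule genes, 2 were higher and 7 lower in CD8 T than in NK cells, where 26.5% of all genes were called, with *Gzmk*, another granzyme, at 3.68 on the log2 scale, *Gzma*, a tryptase, at -3.17, *Serpinb9*, a granzyme B inhibitor, at -1.19, *Prf1*, which encodes perforin, at -1.02 and *Serpinb6b* at -0.91. ILC-like cells had 0 higher and 4 lower than NK cells, *Gzma* (7.99-fold), *Serpinb9b* (-2.33 on the log2 scale), *Prf1* (-1.63) and *Nkg7* (-0.72), where 2.94% of all genes were called. Tregs had 1 higher and 10 lower than NK cells (41.8% of all genes called), led by *Serpinb9b* (-4.45), *Gzma* (-4.10), *Prf1* (-3.08), *Gzmm* (-2.79) and *Ctsw* (-2.66). γδ T cells also had 1 higher and 10 lower (33.8%), led by *Gzma* (-3.72), *Serpinb9b* (-3.47), *Prf1* (-3.23), *Nkg7* (-2.55) and *Serpinb9* (-2.15). Against CD8 T cells, Tregs had 3 higher and 11 lower (26.7%), led by *Gzmk* (-4.40), *Serpinb9b* (-3.51), *Gzmm* (-3.29), *Ctsw* (-2.30) and *Prf1* (-2.06). Between colors in NK cells 0 were higher and 3 lower, *Gzmk* (-2.27), *Gzma* (-1.18) and *Stx11* (-0.87), a count near the 15.6% of all genes called. In CD8 T cells, where 8.27% of all genes were called, *Prf1* (1.21) and *Serpinb9b* (1.36) were higher in KR+ cells and *Gzma* (-1.39), *Gzmk* (-0.93) and *Gzmm* (-2.09) lower. In the difference between the classes (6.83% of all genes called) *Gzmm* was higher (2.34) and *Serpinb9b* (-1.82), *Gzmk* (-1.35) and *Prf1* (-0.95) were lower.

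The chymase and mast cell protease genes next to the cluster gave little signal. Of 8, 2 to 6 could be tested, and single cells held most of it: in CD8 T cells of Kaede-red 1 cell held 98.4% of the *Cma1* UMIs and 98.1% of those of *Mcpt4*, and in NK cells of Kaede-green 2 1 cell held 98.9% of the *Mcpt1* UMIs. Against NK cells *Mcpt1* passed as lower in CD8 T cells, γδ T cells and Tregs, but most of its NK cell UMIs came from that 1 cell. *Cma1* passed as lower in Tregs. In CD8 T cells the summed levels of *Mcpt4*, *Ctsg*, *Cma1* and *Mcpt8* were higher in Kaede-red. For *Mcpt4*, *Ctsg* and *Cma1* 1 Kaede-red cell held 98.1%, 94.6% and 98.4% of the UMIs, so no direction is read for KR+ cells at large. No fold is given for *Mcpt1*, *Mcpt4*, *Ctsg* and, between colors in CD8 T cells, *Cma1*, because single cells carry them. *Mcpt8* was spread over cells but low, at 0.307, 0.462 and 1.42 CPM (log2 fold change 1.85), and its top Kaede-red cell held 12.6% of 95 UMIs. *Cma1* in Tregs against NK cells stood at -4.19. In NK cells *Cma1* was spread over cells and fell with color, at 35.2, 14.8 and 1.45 CPM (log2 fold change -3.93, adjusted p = 0.0216).

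Genes whose levels over the 15 sums were most like a member's were named by Pearson r of log2(CPM + 1) among 11633 genes. For *Gzmb* they were *Tbc1d2b* (r = 0.93), *Usp46*, *Mrpl52*, *Gpr160* and *Fmnl3*. For *Gzmc* they were *Hemgn* (0.94), *Igha*, *2900026A02Rik*, *Osgin1* and *Pik3r6*. For *Gzmd* they were *Itga1*, which encodes the collagen receptor subunit CD49a (0.91), *Angptl4*, *Gm26782*, *Ctsd* and *Gcnt1*. No gene was among the 5 of more than 1 of these members, and the 15 sums share libraries, so the values are descriptions.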

How the data were processed

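Single-cell 3′ RNA libraries (10x Genomics v3) of sorted TILs were analyzed, 2 Kaede-green and 1 Kaede-red. Per the file headers and labels, the deposited tables hold UMI counts, one value per gene and barcode, that the authors made with Cell Ranger (6.1.2 per the labels, 6.0.1 per the file headers; mm10), not normalized. Following the study's methods, a cell needed 1000 to 6000 genes and a mitochondrial share below 7.5%. Doublets were kept, because the automatic Scrublet threshold marked 266, 2 and 4 cells; an alternative removed the top 8% of scores. Classes were set by raw UMIs: CD8 T cells needed 2 UMIs of *Cd3e* and 1 each of *Cd8a* and *Cd8b1*, Tregs 2 of *Cd3e* and 1 of *Foxp3*, and γδ T cells 1 each of *Cd3e* and *Cd163l1*.

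UMIs were summed per library and class and tested with edgeR 4.0.16 (quasi-likelihood, TMM, its low-count filter, Benjamini-Hochberg, threshold 0.05), over 15 sums with the library as block (8 residual degrees of freedom), over 3 sums per class between colors and over 6 for the interaction. Sums of a library are paired because the classes were sampled together. DESeq2 1.42.0 on the same sums was an alternative. The limma 3.58.1 alternative used another measure, log2(CPM + 1) of the mean CPM per cell, in which every cell counts alike. Exact Clopper-Pearson and Poisson 95% intervals cover counting error only, and a count of 0 allows up to 3 counts. On simulated counts edgeR recovered 99% of 2-fold changes for CD8 T minus NK (11164 genes), 71% for color in NK (12990 genes) and 23% for the interaction (13557 genes). The simulation gave all genes the same dispersion and all sums the same profile apart from the planted changes. Its rates therefore do not carry over to the members. Among its calls the share of unchanged genes was above the 0.05 threshold, most so for the interaction.

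The text names the members tested in every comparison, up to 5 granule genes with the largest changes past the threshold, and the 5 genes most like *Gzmb*, *Gzmc* and *Gzmd*. Members and lists were chosen with earlier results of these data known. The pDC class, the threshold of 3 UMIs and the fits without each member's highest cell were added after the data had been seen. Promoter windows came from RefSeq and gene positions from GENCODE. 3′ UMIs count molecules and were not divided by length.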

Additional observations from a re-analysis of the deposited data

Results flagged for a closer look

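The KR+ against KG+ difference was unequal in NK and CD8 T cells for 2 members, by a test of the difference itself. *Gzmf* rose more in NK cells, with a difference of the log2 fold changes of 1.23, and *Gzmb* less, with -0.89. *Gzmf* was higher in Kaede-red than in either Kaede-green library in both classes, while *Gzmb* was higher in Kaede-red CD8 T cells and not in Kaede-red NK cells. The *Gzmf* call did not pass with DESeq2 (adjusted p = 0.206).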

How the results depend on the processing

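Of 947 values recomputed under alternatives, 785 kept their direction and side of the threshold or stayed near the main value. Without the replicate block, which pairs the sums of a library, CD8 T minus NK had 0 members higher and 0 lower and 1973 genes called (3088 with it). ILC-like minus NK had 0 lower and 207 genes called (342), Treg minus NK 3 lower, γδ T minus NK 3 lower, and Treg minus CD8 T 1 lower. In the Treg and γδ T comparisons without the block, the number of genes called stayed within 1.5-fold of the main fit. In ILC-like minus NK without the block, *Gzmd*, *Gzme* and *Gzmf* turned to -0.61, -0.61 and -0.49. No paired analysis was possible between the colors because the labels do not tie the Kaede-red library to a Kaede-green one. Leaving out a library gave 0 to 1 members higher, 1 to 2 lower and 1536 to 4393 genes for CD8 T minus NK (*Gzme* -0.81 to 0.15), and 0 to 1 lower and 113 to 597 genes for ILC-like minus NK (*Gzmd* -0.43 to 0.93, *Gzme* -0.46 to 0.75, *Gzmf* -2.33 to 1.71). It gave 5 to 6 lower and 2900 to 5779 genes for Treg minus NK, 4 to 6 lower and 2455 to 3307 genes for γδ T minus NK, and 3 to 5 lower and 1624 to 3958 genes for Treg minus CD8 T (3111 in all libraries). In color in NK *Gzmb* ranged from -0.10 to 0.13. With DESeq2, CD8 T minus NK had 0 members higher, *Gzmf* in ILC-like minus NK was -0.33, color in NK gave *Gzmb* 0.0075, color in CD8 T called 749 genes (1140 in the main test), and the interaction had 0 members higher and 225 genes called (961). With DESeq2 size factors in edgeR *Gzmb* in NK was 0.0075 and the interaction had 2 higher. Without the low-count filter, where many near-empty genes enter the fit, 4 members were lower in CD8 T minus NK, 1 higher and 2 lower with 784 genes called in ILC-like minus NK, *Gzmb* in NK was 0.076 with 3955 genes called (2017), color in CD8 T called 2151 and the interaction 4 higher and 2193. Without an upper limit on genes, 3 members were lower in Treg minus CD8 T, *Gzmb* in NK was 0.059, and color in CD8 T and the interaction called 714 and 637 genes. Removing the top Scrublet scores gave 753 genes for color in CD8 T and 2 members higher in the interaction. Stricter class rules gave -0.079 for *Gzme* in ILC-like minus NK and -0.079 for *Gzmc* in the interaction. Without each member's highest cell, ILC-like minus NK had 2 lower, with *Gzmd* -0.57, *Gzme* -0.61 and *Gzmf* -1.39, and the interaction 4 higher and 1486 genes. With only the compared classes in the fit, ILC-like minus NK had 2 lower, 661 genes, *Gzme* -0.084 and *Gzmf* -0.45, and Treg minus NK called 2845 genes (4864). With limma on the mean CPM per cell, CD8 T minus NK called 1855 genes with *Gzme* at 0.31, and *Gzmf* in ILC-like minus NK was -0.70. In one fit over all 5 classes, color in CD8 T called 3 members and 526 genes. Kaede-red NK cells with *Gzmc* were 67.4% at 3 UMIs and 90.4% when thinned to 4000 UMIs (82.8% in the main setting), and CD8 T cells with *Gzmf* 24% and 44.7% (36.1%). At 3 UMIs, cells with *Gzmd* that held *Gzmc* were 99.8% in NK cells and those that held *Gzmf* 80.7% in CD8 T cells. The cause of these changes was not tested. Without an upper limit on genes, the number of genes called in Treg minus CD8 T stayed within 1.5-fold of the main fit. Kaede-red was a single library, and ILC-like cells, Tregs and γδ T cells numbered 94 to 698 cells per library.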
